A study of Mus musculus with 6 samples.

Results

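Crym, Trh, Crh, Thra, Thrb and Dio3 are 6 genes linked to thyroid hormone and to the releasing hormones of the brain. They were read from the probe sets whose platform annotation gives exactly 1 of these symbols, which found 7 of the 45037 probe sets tested and 5 of the 6 genes. Crym, Trh, Crh and Thrb had 1 probe set each, Thra had 3 and Dio3 had 0, so Dio3 was not analysed here. Crym and Crh were chosen by their higher level in every induced array, and Trh by its spread among the control arrays. Their values are therefore a description, given with no test. Thra and Thrb were added for their role and could be tested.

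The cells were Flk1-positive cells sorted from embryoid bodies, aggregates of differentiating embryonic stem (ES) cells, at day 3.5. Flk1, the product of Kdr, is a VEGF receptor that marks early mesoderm. All samples came from 1 mouse ES cell line, ER71 A17C, of strain background 129P2/Ola, so the controls carry the doxycycline-inducible Etv2 cassette (ER71 A2Lox.cre) too. The 3 induced samples had 0.5 microg/ml doxycycline for 12 hours from day 3.0, and the 3 control samples had none, per the series' design text. The treatment field of the labels repeats the doxycycline text on all 6, so the groups rest on the titles. A line treated with doxycycline but lacking the cassette was not analysed here, so Etv2 and doxycycline itself cannot be told apart. Values are log2 RMA levels (a background-corrected, quantile-normalized array signal), and 1 log2 unit is a 2-fold change.

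Thyroid hormone acts through nuclear receptors, THR alpha (from Thra) and THR beta (from Thrb), which bind DNA mostly with a retinoid X receptor as partner. How much active hormone reaches them depends on membrane transporters, on deiodinases that activate or inactivate it, and on cytosolic binding by mu-crystallin, the product of Crym. Mu-crystallin binds the hormone in an NADPH-dependent way and is also a ketimine reductase of lysine breakdown. Dio3 encodes the deiodinase that inactivates thyroid hormone. In the adult, Trh and Crh encode peptides that the hypothalamus sends to the pituitary, TRH to release thyrotropin and CRH to release corticotropin. Thyroid hormone in turn lowers Trh transcription through its receptors.

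Of the 6 member genes, Trh, Thrb and Dio3 had an entry in the RefSeq promoter table, while Crym, Crh and Thra had none. The Trh window is shown because hormone feedback on Trh is the best known link between these members. It is the 250 bases before the gene's start, read 5′ to 3′ on the gene's strand, at chr6:92244651-92244900 on the minus strand of GRCm38.p6.
Trh: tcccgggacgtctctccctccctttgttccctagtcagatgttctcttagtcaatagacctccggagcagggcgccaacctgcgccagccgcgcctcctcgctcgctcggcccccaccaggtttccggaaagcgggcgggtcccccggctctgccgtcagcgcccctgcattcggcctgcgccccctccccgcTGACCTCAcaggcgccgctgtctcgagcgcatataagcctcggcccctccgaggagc
The capitals mark TGACCTCA, from 57 to 50 bases before the start. Studies of the Trh promoter know an element of this kind, near the start, as a place where thyroid hormone receptors and CREB act. On either strand TGACCTCA lies in 1.94% of the 32851 promoter windows of the same length. The receptor half-site AGGTCA, which overlaps it here on the opposite strand, lies in 14.02%. The ETS core GGAA occurs 3 times in the Trh window, 1 of them on the gene's strand, and lies in 93.45% of all windows. These matches describe letters only, and binding was not measured in these data.

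Crym was higher in every induced array than in every control. Its probe set 1416776_at stood at 9.40, 8.76 and 8.98 in controls 1, 2 and 3. In induced samples 1, 2 and 3 it stood at 9.97, 9.80 and 10.25. The lowest induced array lay above the highest control, so the groups did not overlap. The means were 9.05 ± 0.32 (SD, n = 3) and 10.01 ± 0.23, a log2 difference of 0.96 ± 0.18 (SE of the fit), or 1.94-fold. Within the replicate numbers, which both groups share, the difference was 0.57 in replicate 1, 1.03 in replicate 2 and 1.27 in replicate 3. A bulk level cannot separate more cells with the transcript from more transcript per cell, here and for every gene that follows.

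Crh also stood higher in the 3 induced arrays, on a dimmer probe set. Probe set 1457984_at was at 7.04, 6.75 and 6.11 in controls 1, 2 and 3. It was at 7.94, 7.33 and 7.47 in induced samples 1, 2 and 3. The groups did not overlap, and control 3 was the lowest array by a wide step. The means were 6.63 ± 0.47 (SD, n = 3) and 7.58 ± 0.32, a log2 difference of 0.94 ± 0.25 (SE), or 1.92-fold. By replicate number the difference was 0.90, 0.58 and 1.35. Crh lay near the middle of the table's levels, with 45.57% of probe sets below it. The table carries no detection calls, so whether a dim probe set was above background is not known.

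**Figure D1:**
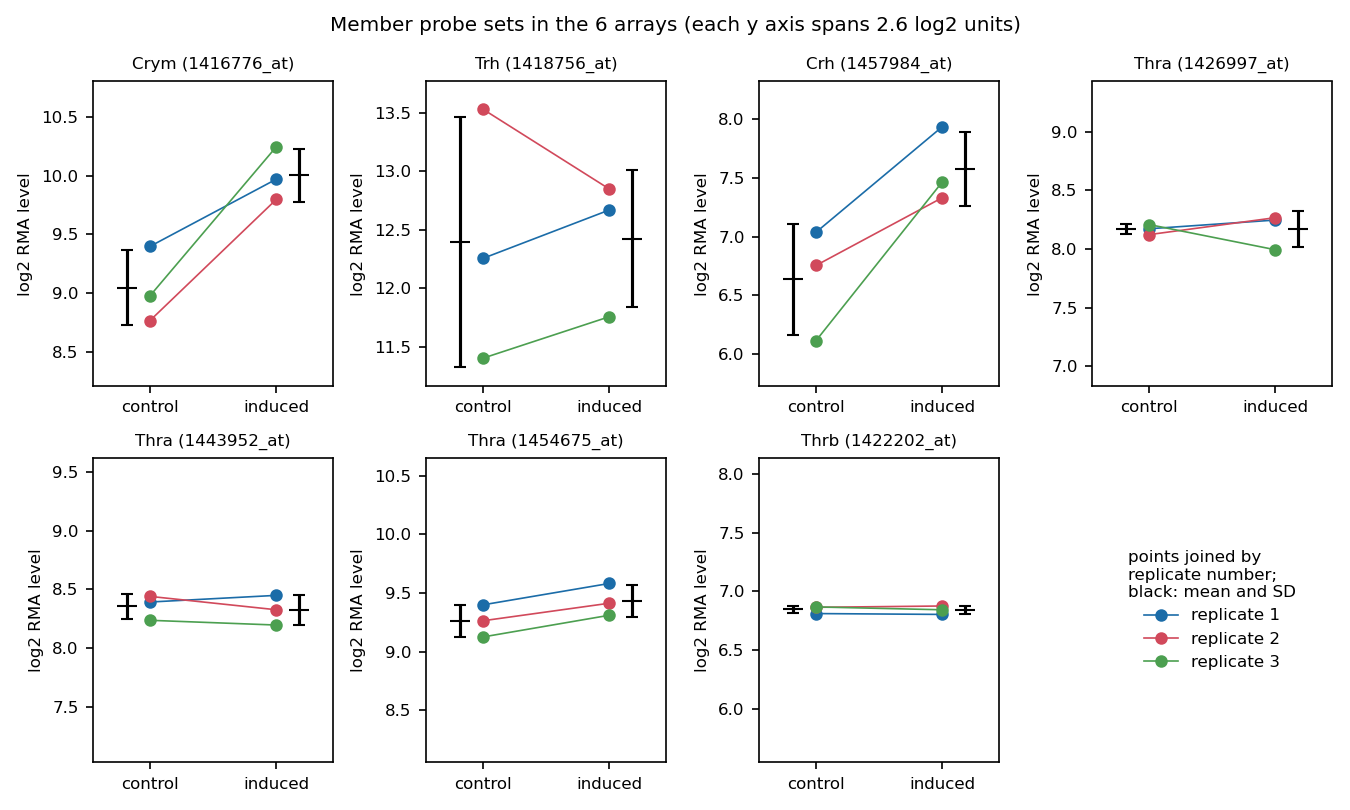
Log2 RMA level of each of the 7 member probe sets, with points joined by replicate number and the mean and SD of each group in black. Crym and Crh are higher in all 3 induced arrays, Trh spreads from 11.40 to 13.53 among controls, and the Thra and Thrb levels of both groups overlap.

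Crym and Crh are placed here among the other probe sets of the table. Groups did not overlap in 6.42% of the probe sets tested, in either direction. An induced level at least 0.5 log2 units above the control of the same number in all 3 pairs was found for 12 probe sets, or 0.0266%, with Crym and Crh among them. Since both were picked for this rise, nothing is read from that count. Ordered by mean difference, Etv2, Hprt, Exoc3l and Nt5e came before Crym and Crh. Rnase4, Slc39a4, Lmo2, Ltb and 2 probe sets without a name followed. Slc39a4 is named here after its values were seen. Etv2 itself was higher by 3.36, 4.69 and 2.65 in replicates 1, 2 and 3. The pair with the widest Etv2 difference, replicate 2, had the narrowest Crh difference and the middle Crym difference. Etv2 was nearly level in induced samples 1, 2 and 3, at 13.27, 13.28 and 13.36, and lowest in control 2, at 8.59. Its differences therefore follow the control levels, and a link to those of Crym and Crh was not tested.

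**Figure D2:**
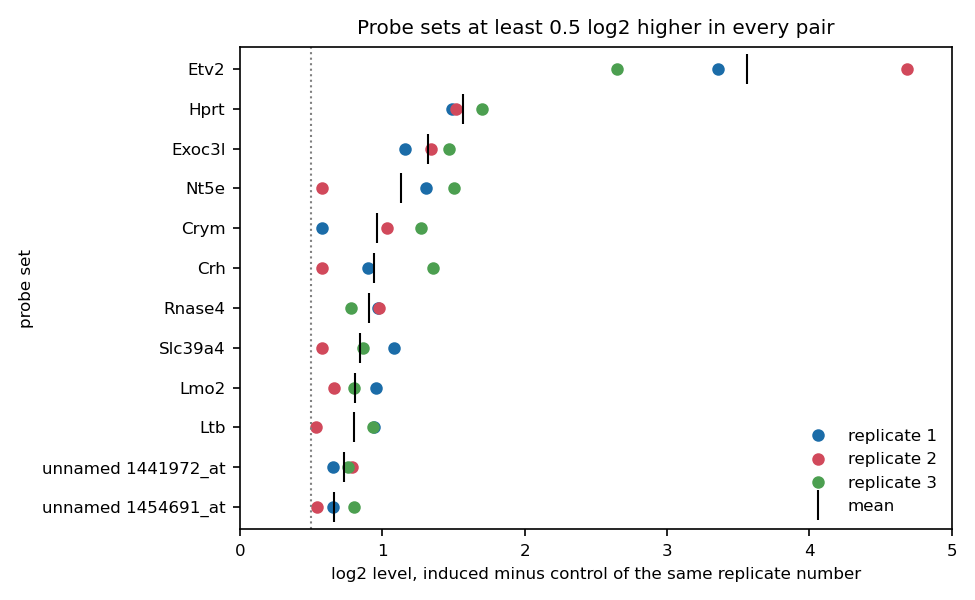
Log2 difference, induced minus the control of the same replicate number, for the 12 probe sets with at least 0.5 (dotted line) in all 3 pairs, with the mean as a black tick. Crym and Crh lie at means of 0.96 and 0.94, between Nt5e at 1.13 and Rnase4 at 0.91.

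The genes whose levels ran most like those of Crym and Crh over the 6 arrays are given as a description. Both were picked for their step between the groups, so genes with a like step lie near them by construction. Likeness was the root mean square (RMS) difference between levels centred on their own means, among 18192 other genes. For Crym the nearest were Rnase4, a secreted ribonuclease, at 0.19 log2 units, and Lmo2, a LIM-domain cofactor, at 0.26. The cytokine gene Ltb was also at 0.26, followed by Exoc3l at 0.31 and the lipoxygenase gene Alox15 at 0.32. For Crh the nearest was the ETS factor gene Elk3 at 0.17, followed by Ltb at 0.24 and Nt5e, an enzyme that makes adenosine, at 0.28. Cebpd, a bZIP transcription factor gene, and Gbp2, a guanylate-binding protein gene, came next at 0.29 and 0.30. Crym itself varied around its mean by an RMS of 0.53 and Crh by 0.58.

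Trh had the same mean level in both groups to within 0.03 log2 units and spread widely inside each. Probe set 1418756_at stood at 12.26, 13.53 and 11.40 in controls 1, 2 and 3. It stood at 12.67, 12.85 and 11.76 in induced samples 1, 2 and 3. The controls spanned 2.13 log2 units, a 4.37-fold range, and enclosed all 3 induced arrays, which spanned 1.09. The means were 12.40 ± 1.07 (SD, n = 3) and 12.43 ± 0.59, a log2 difference of 0.029 ± 0.52 (SE). A control SD this wide was reached by 73 of the 45037 probe sets, or 0.162%, which describes the choice of Trh. By replicate number Trh differed by 0.41, -0.68 and 0.35, so replicate 2 ran opposite to the other two. Leaving out control 2 moved the difference to 0.60, and leaving out control 3 moved it to -0.47.

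The order of the arrays by Trh was exactly the reverse of their order by Kdr, the gene of the sort marker. From high to low Trh the arrays were control 2, induced 2, induced 1, control 1, induced 3 and control 3. Kdr stood at 8.40 in control 2, 9.36 in induced 2 and 9.56 in induced 1. It stood at 10.02 in control 1, 10.52 in induced 3 and 10.97 in control 3. Of the 18192 other genes, 154 (0.85%) had the reverse order of Trh and 126 (0.69%) had the same order. Trh was picked for its spread among controls, so genes that spread over the same arrays are likelier to match or reverse its order. Nothing is read from these counts. The 154 include 4 of the 44 marker genes measured, namely Kdr, Tbx6 and Lef1 of primitive streak and mesoderm and Cer1 of definitive endoderm. The 126 include 1 of the 44, the pluripotency gene Nanog. Control levels of Etv2 followed Kdr, at 8.59 in control 2, 9.92 in control 1 and 10.71 in control 3.

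Trh has been described as a marker of early definitive endoderm in mouse ES cell cultures, and here it ran against the mean of the definitive endoderm list. The mean level of 9 definitive endoderm genes was 9.63 in control 2, where Trh was highest, and 10.59 in control 3, where it was lowest. The genes named next were picked from the marker lists after their values were seen. Sox17, an endoderm transcription factor gene, was at 8.29 in control 2 and 10.81 in control 3. Cxcr4, a chemokine receptor gene that mesoderm also expresses, was at 8.50 and 11.58. Not all of the list did this. Epcam, an epithelial adhesion gene, was at 13.00 in control 2 and 12.12 in control 3, and Foxa2, a forkhead factor gene, at 10.69 and 10.49. Its relative Foxa1 was at 8.13 and 8.22. The pluripotency mean of 6 genes was 11.87 in control 2 and 10.81 in control 3. The mean of 8 primitive streak and mesoderm genes was 10.46 and 11.92. Between these arrays the pluripotency mean went with Trh, while the mesoderm and definitive endoderm means went against it. The part of these lists in the spread of Trh was not tested.

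**Figure D3:**
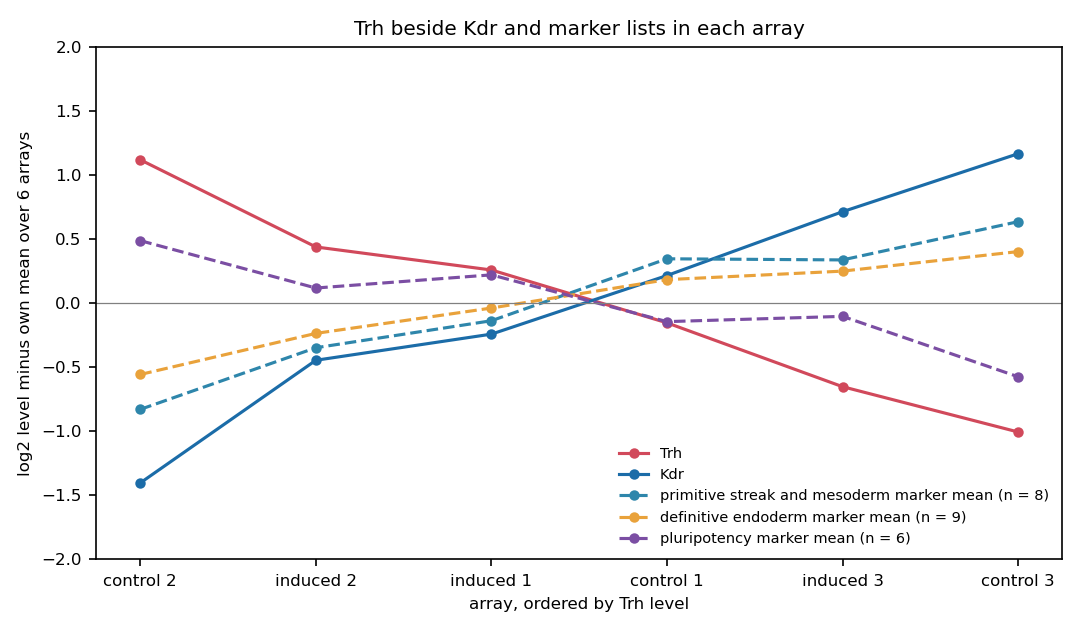
Log2 level minus its own mean over the 6 arrays, for Trh, Kdr and the mean of 3 marker lists, with arrays ordered by Trh. Kdr, a member of the mesoderm list, climbs from 8.40 to 10.97 as Trh goes from 13.53 down to 11.40, the mesoderm and definitive endoderm means go with Kdr, and the pluripotency mean goes with Trh.

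By the same RMS measure the genes nearest to Trh were the chemokine gene Cxcl12 at 0.10 log2 units, the insulin signalling adaptor gene Irs4 at 0.15 and the tight junction gene Ocln at 0.16. The ectoenzyme gene Enpp3 at 0.16 and the transcription factor gene Myb at 0.17 followed. Trh itself varied around its mean by an RMS of 0.70. It was picked for its spread among controls, so genes with a like spread lie near it by construction. Cxcl12 stood at 9.23, 10.26 and 8.34 in controls 1, 2 and 3 and at 9.59, 9.80 and 8.84 in induced samples 1, 2 and 3, the array order of Trh.

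The receptor genes were not called. In the limma fit over all probe sets, 0 of the 4 Thra and Thrb probe sets passed the adjusted threshold of 0.05. Over all 45037 probe sets limma called that of Hprt alone (1, or 0.00222%), and with the replicate block it called 0, with 1298 at an unadjusted p under 0.05. Thrb, on probe set 1422202_at, was the steadiest member. It stood at 6.81, 6.86 and 6.87 in controls 1, 2 and 3 and at 6.80, 6.88 and 6.84 in induced samples 1, 2 and 3. All 6 levels lay within 0.072 log2 units. The log2 difference was -0.0067 ± 0.069 (SE), with a 95% interval of -0.17 to 0.15 and limma's adjusted p at 0.9998.

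The 3 Thra probe sets read somewhat different patterns. The files do not say which part of Thra each one reads. The brightest, 1454675_at, was at 9.40, 9.26 and 9.12 in controls 1, 2 and 3 and at 9.58, 9.41 and 9.31 in induced samples 1, 2 and 3. Each induced array lay above the control of its own number, by 0.18, 0.15 and 0.19, while the groups overlapped. The log2 difference was 0.17 ± 0.11 (SE), with a 95% interval of -0.073 to 0.42 and limma's adjusted p at 0.9998. With the replicate block the adjusted p was 0.9997.

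The other two Thra probe sets had no common direction over the pairs. Probe set 1443952_at stood at 8.39, 8.44 and 8.24 in controls and at 8.45, 8.33 and 8.20 in induced samples 1, 2 and 3. Its log2 difference was -0.033 ± 0.096 (SE), with a 95% interval of -0.26 to 0.19. Probe set 1426997_at stood at 8.17, 8.12 and 8.21 in controls and at 8.25, 8.27 and 7.99 in induced samples. Its log2 difference was 0.0013 ± 0.094, with a 95% interval of -0.22 to 0.22. Limma's adjusted p was 0.9998 for both.

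The wider pathway was read from 8 lists of genes, each represented by its probe set with the highest mean. Without Crym, Trh and Crh the lists named 76 genes, of which 68 were measured. Of these 68, 0 passed limma's adjusted threshold in either direction, which 0.00222% of all probe sets passed. At an unadjusted p under 0.05 there were 3, or 4.41%, beside 1.59% of all 18193 genes. These were Rxrg and Slc7a8, higher, and Ncoa1, lower. The shares were 4.41% and 2.87% with the replicate block and 2.94% and 2.37% without induced 3. Without induced 1 they were 5.88% and 1.58%. The gap between the shares was not tested. Groups did not overlap for 8 of the 68, or 11.8%, beside 6.79% of all genes, with 5 higher and 3 lower. The log2 difference was positive in 48 of 68, or 70.6%, with a median of 0.049, beside 51.1% and 0.0026 over all genes. Induced 2 had a higher array median than the other arrays, 7.40 against 7.34 to 7.35, and 29 of the 68 genes lay at or below the median level of all probe sets. Without induced 2 the difference was positive in 38 of 68, or 55.9%, beside 44.6% of all genes, with a median of 0.014.

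**Figure D4:**
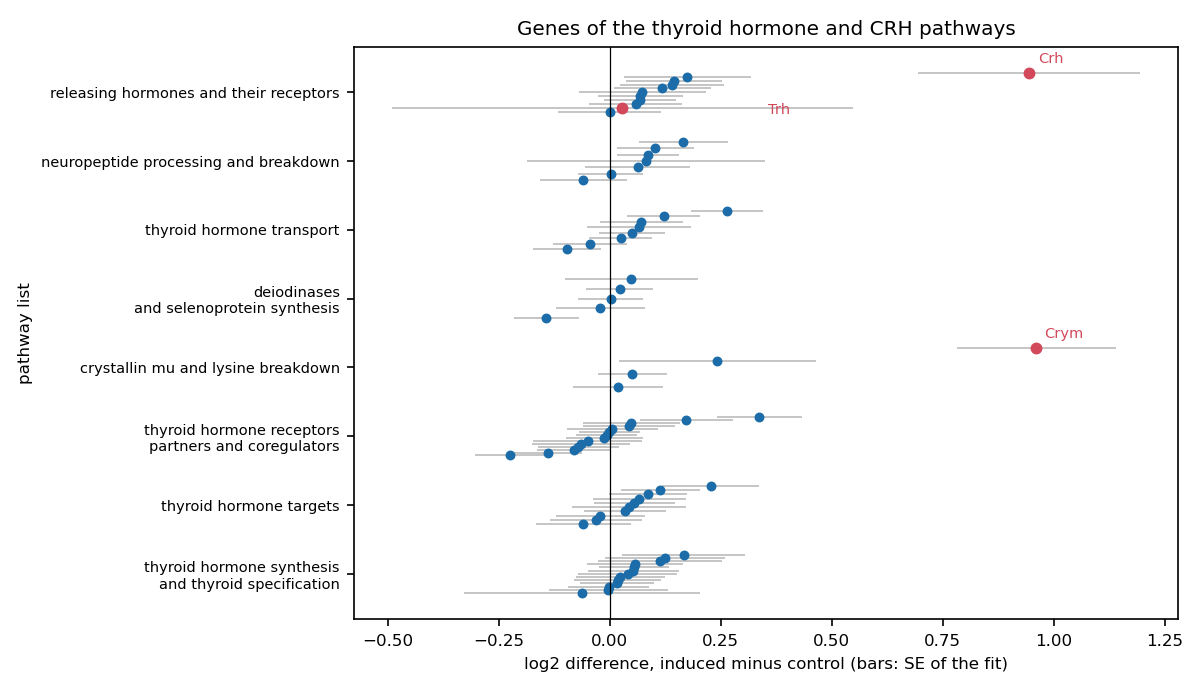
Log2 difference, induced minus control, of each measured gene of the 8 pathway lists, with the SE of the fit as a grey bar and Crym, Trh and Crh in red. Crh and Crym lie near 0.94 and 0.96, and every other gene lies between -0.23 and 0.34.

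Without Trh and Crh, 8 of 9 measured genes of the releasing hormone list had a positive log2 difference, beside 51.1% of all genes. The highest was 0.17. In the list of peptide processing and breakdown 6 of 7 did, also up to 0.17, beside 51.1% of all genes. Neither list had a member called by limma, which called 0.00222% of all probe sets and not Etv2. The calls therefore say little of these genes. For the pathway genes that follow, group means carry an SD between 0.0091 and 0.50. Pomc, the precursor of corticotropin, was at 8.43 in controls and 8.57 in induced samples. Crhr1, the main CRH receptor gene, was at 8.14 and 8.21. Induced 2, the array with the higher median, was highest for Pomc and Crhr1, at 8.82 and 8.54. Crhr1 was at 7.99 and 8.11 in induced 1 and 3. Induced 2 was also highest for Trhr, Trhr2, Crhr2, Crhbp, Ucn and Ucn2 of this list, and not for Ucn3. In the second list, the carboxypeptidase gene Cpe was at 10.35 and 10.51 and the amidating enzyme gene Pam at 9.49 and 9.60. Pcsk1n, which encodes a convertase inhibitor, was at 8.35 and 8.29. The groups did not overlap for the convertase gene Pcsk1, at 6.30 ± 0.036 (SD, n = 3) and 6.38 ± 0.042.

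In the transport list 6 of 8 measured genes had a positive log2 difference and 2 of 8 had non-overlapping groups, or 25%, beside 6.79% of all genes. Slc3a2 and Slc7a5, which together form an amino acid carrier, were at 12.01 and 10.68 in controls and at 11.91 and 10.63 in induced samples. The transporter gene Slc16a10 was at 8.97 and 9.02. Slc7a8 was at 6.04, 6.20 and 6.21 in controls and at 6.42, 6.48 and 6.36 in induced samples, with no overlap and a log2 difference of 0.26 ± 0.081 (SE). Slco1c1 did not overlap either, with a difference of 0.12 ± 0.082. Neither passed limma's adjusted threshold, with an adjusted p of 0.9998 for both.

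Among 5 measured genes of deiodinases and selenoprotein synthesis, 3 had a positive log2 difference. Sephs2 was at 11.51 in both groups and Eefsec at 9.37 and 9.39. Secisbp2, which encodes a protein that reads the selenocysteine signal in such mRNAs, was at 10.11 and 9.96 without overlap. The remaining deiodinase genes, named outside the naming rule after their values were seen, were Dio1 at 5.46 and 5.44 and Dio2 at 7.48 and 7.53. In the lysine breakdown list, which Crym shares, Aldh7a1 was at 11.33 and 11.38 and Pipox at 8.07 and 8.31.

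The list of receptors, partners and coregulators, which holds Thra and Thrb, had 14 measured genes. The log2 difference was positive in 5 and negative in 9, a positive share of 35.7% beside 51.1% of all genes. The median was -0.0094, beside 0.0026 over all genes. Rxrg, of this list, had the widest difference of the 68 genes. This retinoid X receptor gene was at 8.54, 8.48 and 8.77 in controls 1, 2 and 3 and at 8.88, 8.91 and 9.01 in induced samples. The groups did not overlap, and the log2 difference was 0.34 ± 0.096 (SE). On the lower side, the coactivator gene Ncoa1 had -0.23 ± 0.079 and the corepressor subunit gene Tbl1xr1 had -0.14 ± 0.077, both without overlap. Limma's adjusted p was 0.9998 for all 3. The related subunit gene Tbl1x was at 12.48 in controls and 12.41 in induced samples, the Mediator gene Med1 at 11.35 and 11.27, and Ncoa2 at 10.88 and 10.82.

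Among hormone targets and thyroid genes limma called 0, where it called 0.00222% of all probe sets and not Etv2 either, so the count says little of these genes. Of 10 measured targets 7 had a positive log2 difference, and of the 13 thyroid genes 10 did, beside 51.1% of all genes. The mean of each list was highest in induced 2, the array with the higher median, at 8.73 and 6.97. In induced 1 and 3 the target mean was 8.64 and 8.67, beside 8.61 to 8.64 in controls. The thyroid mean there was 6.76 and 6.82, beside 6.71 to 6.88 in controls. The zinc finger gene Klf9 was at 11.70 in controls and 11.75 in induced samples, the calcium pump gene Atp2a2 at 13.17 and 13.11, and the malic enzyme gene Me1 at 9.931 and 9.998. Mbp, the myelin basic protein gene, was at 7.90 and 8.12 without overlap, and induced 2 was its highest array at 8.35. Of 13 measured genes of hormone synthesis and thyroid specification, 0 had non-overlapping groups, beside 6.79% of all genes, a share at which so short a list may hold none. In that list Hhex, a homeobox gene also of early endoderm and endothelium, was at 8.92 and 8.86. The iodide carrier gene Slc5a5 was at 8.40 and 8.45 and the thyrotropin receptor gene Tshr at 7.88 and 7.90.

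Checks of the labels bear on all these comparisons. For Etv2 the control arrays averaged 9.74 ± 1.07 (SD, n = 3) and the induced arrays 13.30 ± 0.048, without overlap. Kdr, which the sort selected in both groups, was at 9.80 ± 1.30 and 9.82 ± 0.62. Hprt was at 8.40 ± 0.097 and 9.96 ± 0.17. Endothelial markers (5 genes) had mean levels from 5.84 to 6.17 over the arrays and 4 blood markers from 6.91 to 7.26, with induced 2 highest in both. The log2 difference was positive in 5 of 5 endothelial and 4 of 4 blood markers, beside 51.1% of all genes. In induced 1 and 3 the endothelial mean was 5.92 and 5.92, beside 5.84 to 5.94 in controls. The blood mean there was 6.91 and 6.96, beside 6.91 to 6.95 in controls. Means ran from 7.59 to 8.04 for 7 visceral endoderm markers, of which 6 had a positive difference, and from 8.32 to 8.53 for 5 neuroectoderm markers, of which 3 did. Groups did not overlap for Cubn and Apoa1 of visceral endoderm, higher by 0.24 and 0.16. Nor did they for Foxa1 of definitive endoderm, higher by 0.41, and Gata1 of blood, higher by 0.14. No other of the 44 markers measured had non-overlapping groups, which 6.79% of all genes had. None of these markers was called by limma, which called 0.00222% of all probe sets and not Etv2, so this says little of them. The part of the markers in the levels of Crym and Crh was not tested.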

How the data were processed

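The authors deposited log2 expression values per probe set that come from RMA, per the submitters' processing notes. The sources used here do not give the RMA software, version or probe definitions, and scanner files were not used here. From 45101 probe sets 64 Affymetrix controls were removed. Symbols came from GEO's platform annotation, with 1 symbol for 34945 probe sets and 18193 genes. The induced and control arrays were compared with limma 3.58.1 in R 4.3.3 (lmFit, eBayes; two-sided tests). P-values were adjusted by Benjamini-Hochberg across 45037 probe sets, with a threshold of 0.05 and no filter. The code was tested on simulated data. Differences are induced minus control. An exact permutation test of 3 against 3 has 20 assignments and cannot go below p = 0.1. The number of arrays limits precision.

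The members and lists were chosen with earlier results of these data known. Named genes were, per list, up to 3 with the highest mean, up to 3 with unadjusted p under 0.05 or non-overlapping groups, the 5 nearest to Trh, Crym and Crh, and Etv2, Kdr and Hprt. No label says that replicates were separate cultures, so p-values measure the spread between samples, which may be technical. Deviations of same-numbered samples from their group means correlated at r = 0.25, 0.17 and 0.23 over probe sets. All exceed 0.1, so the numbers were treated as pairs in the replicate block. They did not clearly stand out, since control 1 with induced 3 gave 0.21 and control 2 with induced 1 gave 0.18. This pairing is a hint from the data and the numbering, since the labels name no common day or culture. Alternatives were that block, 2 other normalizations, a level filter, 1 probe set a gene, array weights and leaving out each sample.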

Additional observations from a re-analysis of the deposited data

How the results depend on the processing

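The log2 difference ran from 0.82 to 1.14 for Crym and from 0.68 to 1.15 for Crh when 1 sample was left out. Both were picked with non-overlapping groups, which fixes its sign there. Thra and Thrb passed the threshold in 0 of 45 combinations of a probe set and an alternative setting. Each setting called 1 or 0 probe sets in all, so this says little of Thra and Thrb. The replicate block, which called 0 of all probe sets, changed no call for Thra, Thrb or another of the 68 pathway genes tested. Crym, Trh and Crh were not tested. Differences near 0 changed sign. Thra 1426997_at was -0.016 with arrays centred on their medians and -0.031 with array weights, and ran from -0.048 to 0.089 when 1 sample was left out. Under the same leaving out, Thra 1443952_at ran from -0.095 to 0.031 and Thrb from -0.025 to 0.012. Trh ran from -0.47 to 0.60 and was -0.15 with array weights. The cause of these moves was not tested. The count of limma calls over the table, 1 (690 probe sets at an unadjusted p under 0.05), was 0 with the replicate block (1298), 0 with arrays centred (738) and 0 whenever 1 sample was left out (461 to 1788). Crh and Thrb lay below the median level and had no value under that filter, and Thra 1426997_at and 1443952_at had none with 1 probe set a gene. Signal over background was not given, so compression of dim probe sets could not be measured.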

Other observations

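Dio3os, a noncoding RNA gene beside Dio3, had a probe set where Dio3 had none with its symbol, and it was looked at after the other values were seen. It stood at 7.33, 7.15 and 7.29 in controls 1, 2 and 3 and at 7.12, 7.66 and 7.08 in induced samples 1, 2 and 3. Induced 2, the array with the higher median, was its highest, and the groups overlapped. Its level says nothing of Dio3 itself.

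Pipox, a peroxisomal oxidase gene of the lysine breakdown list, varied among controls in the direction of Trh. It stood at 7.81, 8.61 and 7.79 in controls 1, 2 and 3 and at 8.32, 8.50 and 8.13 in induced samples 1, 2 and 3, so control 2 was highest for both genes. Apoe, a lipoprotein gene of the visceral endoderm list, was also highest in control 2 and lowest in control 3, at 11.75 and 10.11. Both were picked after their values were seen, and no test was run.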
